A study of Mus musculus with 2 samples.

Results

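The 9 genes described here are the RUNX and Ikaros families of blood transcription factors: Runx1, Runx2, Runx3 and Cbfb, and Ikzf1 to Ikzf5. They were taken by symbol from the GENCODE M21 annotation of the mouse genome build mm10, as 9 of 21938 protein-coding genes. The mark measured was H3K4me3, histone H3 carrying 3 methyl groups on lysine 4, which is found at the starts of active and poised genes. It was mapped by chromatin immunoprecipitation and sequencing in MEL cells. MEL is an immortalized line of mouse erythroleukaemia cells that resemble red cell precursors, and the 2 libraries form 1 group with no treatment or second condition. By their labels these are biological replicates 1 and 2, drawn from a common cell sample, so the spread between them may be technical. The lists give peaks and no read counts, so the depth is unknown and a missing peak can also mean too few reads.

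RUNX proteins bind DNA through the Runt domain and do so more tightly as a dimer with CBFβ, the product of Cbfb, which does not itself bind DNA. Each RUNX gene is known for a pair of promoters, a distal one and a proximal one inside the gene, whose transcripts encode proteins with different first residues. At Runx1, a master regulator of blood stem cells, the distal promoter is the one used by most definitive blood cells. Runx2 directs bone formation, and Runx3 acts in T cells and neurons. The Ikaros family are zinc finger proteins that recruit nucleosome remodelling and deacetylase complexes: Ikaros (Ikzf1) and Aiolos (Ikzf3) in lymphocyte development, Helios (Ikzf2) and Eos (Ikzf4) best known in regulatory T cells, and the divergent Pegasus (Ikzf5), which has a role in platelets.

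A gene counted as marked if any of its transcription start sites (TSSs) had a peak no further than 1000 bp away. In the list of peaks replicated between the libraries, 6 of the 9 genes were marked: Runx1, Runx3, Cbfb, Ikzf1, Ikzf2 and Ikzf5. Runx2, Ikzf3 and Ikzf4 had no TSS peak. The calls were the same in the replicate 1 list and in the replicate 2 list for all 9 genes. Over all protein-coding genes, 50.3% were marked in the replicated list, 50.4% in replicate 1 and 50.9% in replicate 2. Starts of a gene within 500 bp of each other were joined into start clusters. The 9 genes had 24 clusters, of which 12 were marked in the replicated list, beside 28.2% of the 52546 clusters of all genes. Clusters of 1 gene share peaks and are not independent.

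The distal promoters of the 3 RUNX genes and the proximal promoters of Runx1 and Runx3 are shown by the 250 bases before the 5′-most start, since the genes parted at their promoters. All sequences are from the GRCm38 reference, the same build as mm10, and read 5′ to 3′ on the strand of the gene. Capitals mark the core letters bound by RUNX proteins, TGTGGT or TGCGGT, searched on both strands, so that ACCACA is a match on the opposite strand. The windows lie at chr16:92826150-92826399, minus strand, and chr16:92697329-92697578, minus strand, for Runx1. The distal window of Runx2 lies at chr17:44814798-44815047, minus strand. For Runx3 they lie at chr4:135120402-135120651, plus strand, and chr4:135152246-135152495, plus strand.
Runx1 distal: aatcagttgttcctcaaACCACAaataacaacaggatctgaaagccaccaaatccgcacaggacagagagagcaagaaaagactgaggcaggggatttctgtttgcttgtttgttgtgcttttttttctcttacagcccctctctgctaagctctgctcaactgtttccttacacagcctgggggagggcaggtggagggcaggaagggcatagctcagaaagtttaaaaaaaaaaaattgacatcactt
Runx1 proximal: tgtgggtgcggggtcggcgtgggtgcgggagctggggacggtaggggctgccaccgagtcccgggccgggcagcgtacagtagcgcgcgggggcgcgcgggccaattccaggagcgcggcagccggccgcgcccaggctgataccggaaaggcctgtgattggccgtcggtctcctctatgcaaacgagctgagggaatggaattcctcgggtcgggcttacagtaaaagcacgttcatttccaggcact
Runx2 distal: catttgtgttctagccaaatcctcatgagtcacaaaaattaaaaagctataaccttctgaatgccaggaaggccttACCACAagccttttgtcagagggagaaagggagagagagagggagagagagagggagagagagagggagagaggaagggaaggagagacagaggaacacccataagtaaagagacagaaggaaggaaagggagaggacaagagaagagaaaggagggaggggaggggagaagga
Runx3 distal: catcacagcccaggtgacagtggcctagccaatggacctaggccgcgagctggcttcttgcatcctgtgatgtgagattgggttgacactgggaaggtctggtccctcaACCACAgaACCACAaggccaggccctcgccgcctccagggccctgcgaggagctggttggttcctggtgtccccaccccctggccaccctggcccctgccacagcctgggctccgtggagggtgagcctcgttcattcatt
Runx3 proximal: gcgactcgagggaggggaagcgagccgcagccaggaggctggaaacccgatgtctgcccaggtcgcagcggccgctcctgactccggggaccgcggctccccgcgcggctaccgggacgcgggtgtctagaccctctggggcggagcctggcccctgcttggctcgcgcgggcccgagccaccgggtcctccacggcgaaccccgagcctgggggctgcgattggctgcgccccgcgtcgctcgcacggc

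These letters stood in all 3 distal windows and in 0 of the 2 proximal windows shown. The proximal window of Runx2, which is not printed, held 0 matches as well. In Runx1 the match lay at bases -233 to -228 from the start, and in Runx2 at -174 to -169. Runx3 had 2 matches only a few bases apart, at -141 to -136 and -133 to -128. Of the 52546 windows of the same length before the start clusters of all genes, 19.1% held the letters, and of the 24 clusters of the 9 genes 4 held them, the other being a Runx1 cluster further downstream. A match describes the letters only. The distal and proximal windows also differed in base composition. The dinucleotide CG occurred 1 time in the Runx1 distal window and 27 times in the proximal one, and 7 and 33 times at Runx3. In the Runx2 distal window it occurred 0 times.

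Runx1 was marked at the distal promoter and not at the proximal one. The gene spans chr16:92601466-92826149 on the minus strand, with 7 annotated transcripts and 4 start clusters. A single peak of 3497 bp at chr16:92823140-92826636 covered the distal start at 92826149, reaching 487 bp upstream and 3009 bp downstream, with its summit in a non-coding exon. Its signal value, a score per peak given by the authors, was 17.8 in the replicated list. The signal was 10.6 in the replicate 1 list and 19.7 in the replicate 2 list. These values can be ranked only within a list: the distal peak of Runx1 stood in the top 21.8% of marked genes in the replicated list, the top 64.9% in replicate 1 and the top 24.1% in replicate 2. In replicate 1 the domain was made of 4 peaks and the 5′-most start fell in a gap of 75 bp between a peak on either side.

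The proximal promoter of Runx1, 129 kb downstream at 92697328, had no peak in any list. The nearest replicated peak lay 64.9 kb away, and the nearest peak of replicate 1 lay 18.1 kb away. The 2 start clusters next to the proximal one, at 92696125 and 92695495, were unmarked as well. The promoters differed in base composition. Within 500 bases on either side of the start, the observed to expected CpG ratio was 0.31 with 46.9% G and C at the distal promoter, which is low-CpG (a ratio under 0.4). At the proximal promoter it was 0.86 with 61.9%, which is high-CpG (a ratio of at least 0.6 and at least 50% G and C). Among all start clusters, 76.4% of the high-CpG and 9.06% of the low-CpG ones were marked.

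Repeated sequence, at which reads may not map, was scarce at both promoters: 0% of the 32-base words at the distal and 0.206% at the proximal promoter of Runx1 occurred more than once in the genome. Other genes with a pair of promoters gave the background. Of 3341 genes with a distal and a proximal promoter at least 5000 bp apart, 32.8% were marked at the distal one only, 8.65% at the proximal one only, 9.97% at both and 48.6% at neither. Of the 311 genes whose proximal promoter was high-CpG and whose distal one was not, 3.54% were marked at the distal one only.

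Runx3 was marked at both promoters. The gene spans chr4:135120652-135177990 on the plus strand, with the proximal promoter 31.8 kb from the distal one. At the distal start, 135120652, the strongest peak had a signal of 11.8 in the replicated list, 8.84 in replicate 1 and 15.0 in replicate 2. It lay at chr4:135120598-135121368 in a domain of 1151 bp. A second, weaker peak just upstream, with a signal of 4.07, was in the replicate 2 list and not in replicate 1. It lay over the start of the long non-coding RNA Gm16225, which runs the other way from 204 bp upstream. The distal promoter of Runx3 had a CpG ratio of 0.36 and was low-CpG, like that of Runx1.

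At the proximal start of Runx3, 135152496, a domain of 2568 bp at chr4:135152056-135154623 held a peak of 548 bp and a peak of 1921 bp. The highest signal there was 13.5 in the replicated list, 7.30 in replicate 1 and 16.8 in replicate 2. This promoter had a CpG ratio of 0.95 with 74.0% G and C. The proximal peak thus ranked above the distal one in the replicated and replicate 2 lists, and below it in replicate 1. The order of the 2 Runx3 promoters by signal was therefore not the same in the 2 libraries.

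Runx2 was marked at neither promoter, in any list. The gene spans chr17:44495987-44814797 on the minus strand and has 13 annotated transcripts. Its distal start, at 44814797, was low-CpG with a ratio of 0.16. The nearest replicated peak lay 35.6 kb from the closest start of the distal cluster, at 44814226. Its proximal start was high-CpG with a ratio of 0.91, and the nearest replicated peak lay 39.7 kb away. In replicate 1 alone a narrow peak of signal 3.59 came within 7.03 kb of the closest start of the distal cluster. Repeated words made up 2.47% of the distal and 0% of the proximal promoter of Runx2. The antisense RNA Runx2os1, which starts 134 bp from the nearest Runx2 start, had no peak there either.

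The strongest H3K4me3 inside the Runx2 gene lay at the starts of another gene. A peak of 1434 bp at chr17:44777199-44778632 had a signal of 19.8 in the replicated list, which placed it in the top 3.63% of all peaks. The values were 14.0 in replicate 1 and 23.9 in replicate 2. Together with a neighbouring peak of signal 8.56 it formed a domain of 2256 bp. This domain lay at the starts of Supt3, which encodes a subunit of the SAGA coactivator complex and is read from the opposite strand, from 44777152 in an intron of Runx2. Away from any protein-coding start, 3 further replicated peaks lay in introns of Runx2 downstream of its proximal promoter: chr17:44598755-44599954 with a signal of 10.5, chr17:44623217-44624174 with 6.50 and chr17:44672641-44673027 with 4.56. All 3 were overlapped by peaks in both replicate lists. The strongest of them, at 1200 bp, was split into 3 narrow peaks in replicate 1 and stood as 1 peak of signal 14.1 in replicate 2.

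**Figure D1:**
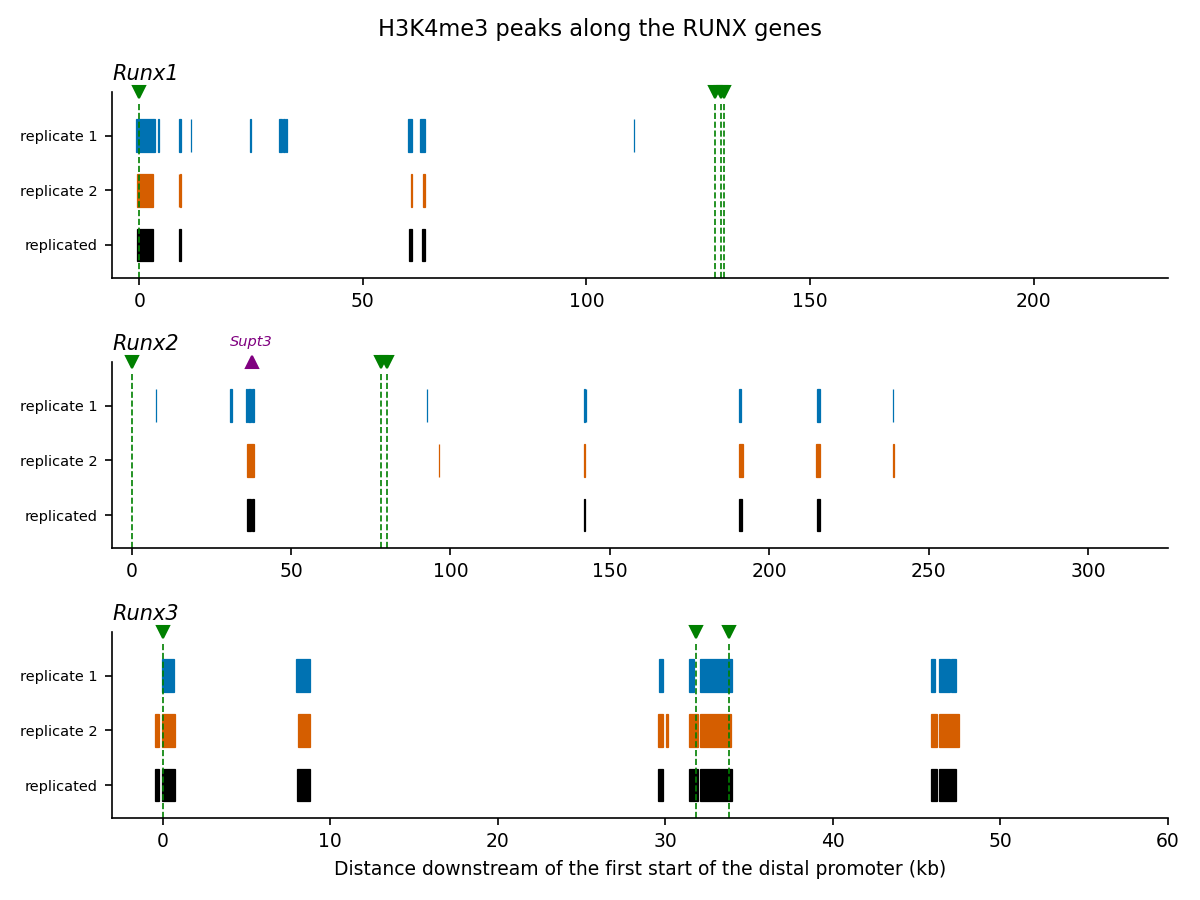
Peaks along Runx1, Runx2 and Runx3, in kb downstream of the 5′-most start of the distal promoter, with a row for each of the replicate 1, replicate 2 and replicated lists. Green triangles and dashed lines are start clusters, and the purple triangle is the start of Supt3. Peaks sit at the distal start of Runx1, at both promoters of Runx3 and at neither of Runx2, whose thickest block lies at Supt3.

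The bodies of the RUNX genes held further peaks. A peak was counted in a body where its summit lay between the first and last base of the gene, and as away from starts where it lay over 1000 bp from any protein-coding start. Among the 9 genes, 6 had such a peak in the replicated list, 16 peaks in all. Some of the 16 also belong to the TSS domains described below. These are the last peak of the Ikzf1 domain, the only such peak of that gene, and the weak peaks at the downstream end of the Ikzf2 domain. Over all genes 17.9% had a peak away from starts. The share was 28.7% of the 11807 genes at least as long as the shortest of the 9, Ikzf4 at 15149 bp. The 9 genes include some very long ones, so this share was not read as a property of the families.

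Runx1 had 3 peaks away from starts in the replicated list. The peak at chr16:92816816-92817346, 8432 bp from the nearest Runx1 start in a non-coding exon, had a signal of 3.97 there. Overlapping peaks had up to 5.47 in replicate 1 and 3.75 in replicate 2. The peaks at chr16:92762232-92762854 and chr16:92765221-92765743, 62924 and 60035 bp from the nearest Runx1 start, had signals of 3.28 and 2.55 in the replicated list. The overlapping peaks had 6.03 and 3.96 in replicate 1, and 2.19 and 2.27 in replicate 2. They stood in the top 42.9% and 67.6% of the replicate 1 list, and 98.9% and 98.4% of the replicate 2 list. In the replicated list the peaks stood in the top 89.0% and 97.7%, and so among the weakest. The replicate lists differed most at this gene: the body of Runx1 held 13 peaks in replicate 1 and 5 in replicate 2. Replicate 1 also had the longer list, with 51781 peaks against 41501, and whether the list length accounts for the difference was not tested. Runx3 had 4 peaks away from starts in the replicated list, the strongest there at chr4:135128695-135129467 with a signal of 7.50, beside 6.98 in replicate 1 and 8.23 in replicate 2. In replicate 2 the peak at chr4:135167014-135168203 was higher, with 8.36.

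Cbfb, the gene of the shared partner, was marked at its only start cluster. It spans chr8:105170674-105217989 on the plus strand. A peak of 579 bp upstream, with a signal of 10.2, and a peak of 1786 bp downstream, with 15.8, made a domain of 2574 bp at chr8:105169900-105172473. The highest TSS signal was 6.81 in replicate 1 and 20.3 in replicate 2. Its rank in the lists differed widely, top 90.3% of marked genes in replicate 1 and top 21.8% in replicate 2. The 5′-most start lay in a gap of 209 bp between the peaks in the replicated list and of 290 bp in replicate 1, and under a peak in replicate 2. The start region was high-CpG, with a ratio of 0.93. Cbfb had no replicated peak away from its start.

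Of the Ikaros genes, Ikzf2 and Ikzf1 had the widest domains of the 9 genes. Peaks at a start were joined across gaps of up to 1000 bp into domains. At Ikzf2, which spans chr1:69531214-69687245 on the minus strand, the domain was 7298 bp wide at chr1:69681872-69689169, and 7360 ± 888 bp (SD, n = 2) in the replicate lists. At Ikzf1, which spans chr11:11685003-11772926 on the plus strand, it was 7295 bp wide at chr11:11685003-11692297, and 5951 ± 2206 bp (SD, n = 2). The median over the 11037 marked genes was 2258 bp, and 5% of them were wider than 4864 bp. Both genes stood in the top 1% by width in the replicated list, at 0.770% for Ikzf2 and 0.779% for Ikzf1. In the replicate lists Ikzf2 was at 0.905% and 0.931%, while Ikzf1 was at 1.39% in replicate 1 and 7.15% in replicate 2.

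The domain of Ikzf2 covered all 4 of its start clusters. A peak of 4226 bp at chr1:69683089-69687314 lay over the starts with a signal of 14.7, and a peak of 1585 bp at chr1:69687585-69689169 lay upstream with 17.2. At the downstream end 2 weak peaks of signal 3.23 and 3.24 were joined to it, the first of which had no overlapping peak in replicate 2. The highest TSS signal of Ikzf2 was 19.3 in replicate 1 and 20.3 in replicate 2, in the top 6.48% and 21.4% of marked genes. The 5′-most cluster had a CpG ratio of 1.06, the highest of the 24 clusters. Another 2 weak peaks of signal 4.08 and 3.67 lay far inside the gene.

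Ikzf1 carried a wide domain of low signal. Its domain began at the annotated 5′-most start and ran 7294 bp into the gene, with peaks of 664, 4066 and 1769 bp whose signals were 8.05, 8.21 and 6.59. The highest TSS signal was 8.21 in the replicated list, which put Ikzf1 in the top 89.5% of marked genes and so among the weakest. It was 13.0 in replicate 1, in the top 41.3%, and 9.90 in replicate 2, in the top 85.3%. In replicate 2 the peak furthest downstream was too far away to be joined, so that the domain there was 4391 bp. RefSeq gives a further start for Ikzf1 at 11690177, 3732 bp from the nearest GENCODE M21 start. It fell in the gap of 697 bp between the wide peak and the last one in the replicated list and was covered by a peak in replicate 1. The start of Gm11999, a transcript read the other way, lay inside the Ikzf1 domain at 11685400.

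**Figure D2:**
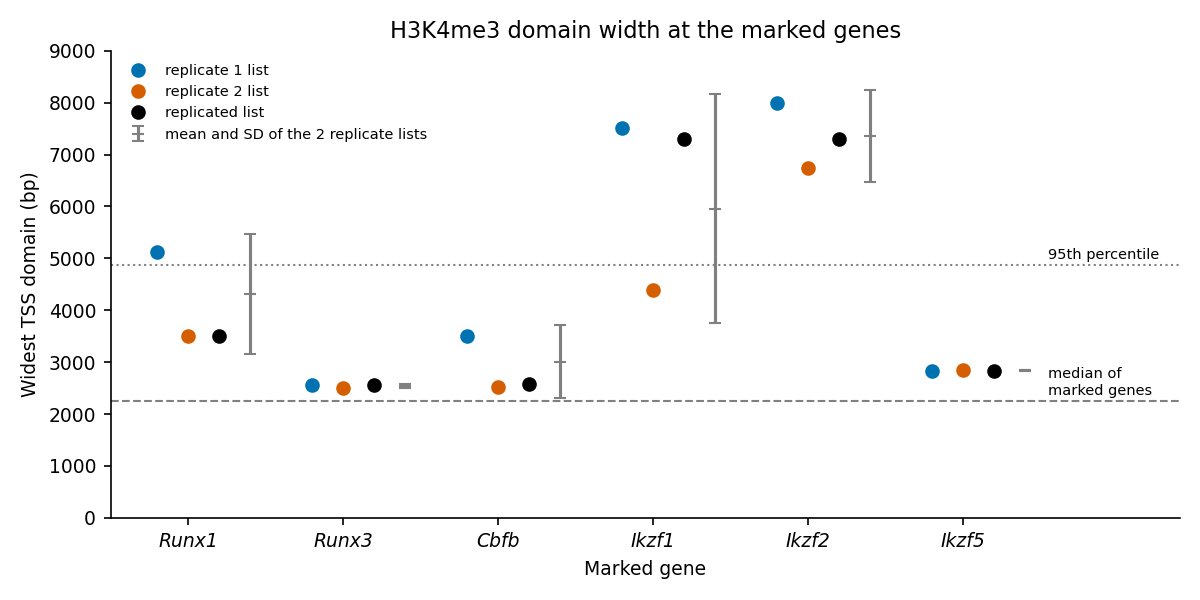
Width in bp of the widest TSS domain at the 6 marked genes in the replicate 1, replicate 2 and replicated lists, with the mean and SD of the 2 replicate lists in grey. Dashed and dotted lines are the median (2258 bp) and 95th percentile (4864 bp) of all marked genes in the replicated list. Ikzf2 lies above the dotted line in every list, Ikzf1 falls under it in replicate 2 and Runx1 rises over it in replicate 1. Within the replicate 1 list itself, Runx1 was in the top 6.64% by width.

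The widths of the other 4 marked genes were nearer to the median. Runx1 measured 3497 bp in the replicated list and 4313 ± 1148 bp (SD, n = 2) in the replicate lists, since weak peaks lengthened it to 5125 bp in replicate 1. It stood in the top 16.6% by width. Cbfb measured 3012 ± 705 bp (SD, n = 2). Ikzf5 measured 2841 ± 9.90 bp and Runx3 2539 ± 38.9 bp (SD, n = 2 each), and their widths were nearly equal in the 2 libraries. By the mean of the replicate lists the order was Ikzf2, Ikzf1, Runx1, Cbfb, Ikzf5 and Runx3. Neighbours in this order overlapped in their ranges over the 2 lists, except Ikzf5 and Runx3. Ikzf2 was wider than Runx1 in both lists, with no overlap. No test was made, because the design has 1 group.

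**Figure D3:**
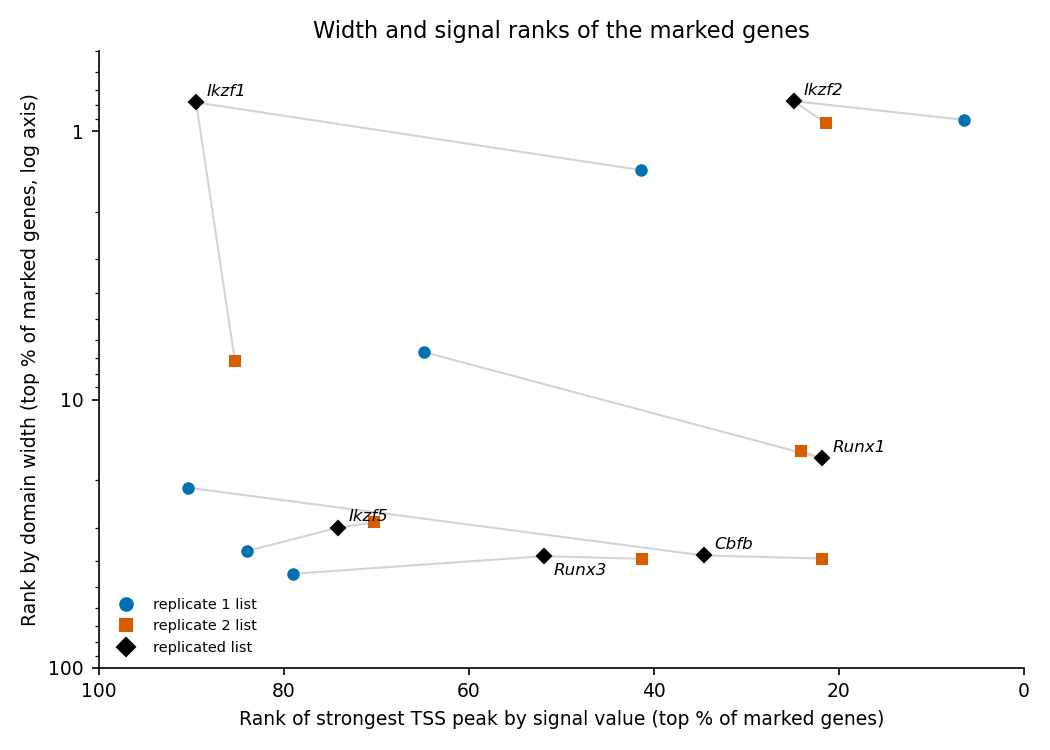
Rank of each marked gene by the signal value of its strongest TSS peak (x axis, top % of marked genes) and by domain width (y axis, top %, log axis), within each list. Grey lines join the lists of a gene. In the replicated list Ikzf1 lies in the top 0.779% by width and the top 89.5% by signal, while Ikzf2 is high on both, at 0.770% and 24.9%.

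The genes with widths most like that of Ikzf2 in the 2 replicate lists were Snap23 and Zfp106, which share a domain of 7880 and 6849 bp, and Klf13 with 8092 and 6880 bp. The measure was the sum over the 2 lists of the absolute difference in log2 width, 0.04 for Snap23 and 0.05 for Klf13. For Runx1 the closest were Dkc1 with 5165 and 3505 bp, Caprin1 with 5286 and 3492 bp and Tmem131l with 5147 and 3371 bp. The likeness concerns 2 widths only.

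Ikzf5 was marked at a start it shares with a neighbour. The gene spans chr7:131388652-131410521 on the minus strand, and the start of Acadsb, an enzyme of branched-chain amino acid breakdown, lies 79 bp further on and points the other way. A peak of 1431 bp on the Ikzf5 side had a signal of 10.4, and a peak of 1224 bp on the Acadsb side had 10.8. Together they spanned 2830 bp at chr7:131409044-131411873. The 5′-most start lay in the gap between them in every list, 175 bp wide in the replicated list, 221 bp in replicate 1 and 153 bp in replicate 2. The highest TSS signal was 8.10 in replicate 1 and 12.6 in replicate 2. The peaks alone cannot say which of the 2 genes they belong to. A downstream start cluster of Ikzf5 at 131393657 was unmarked.

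The bases between the starts of Ikzf5 and Acadsb, at chr7:131410522-131410600, minus strand, are shown because they lie in the gap between the 2 peaks. Capitals mark the dinucleotide CG, which occurs 5 times in them.
Ikzf5 to Acadsb: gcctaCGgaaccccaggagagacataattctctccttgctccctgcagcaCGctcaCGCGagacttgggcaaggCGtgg

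In the replicated list, 10 of the 12 marked start clusters of the 9 genes had the 5′-most start under a peak and 2 in a gap between peaks of a domain. The number in a gap was 4 in replicate 1 and 1 in replicate 2. Over all 14818 clusters marked in the replicated list the shares were 57.7% and 26.1%.

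Ikzf3 had no peak at a start or anywhere in its body, in any list. The gene spans chr11:98464902-98546031 on the minus strand. Its 5′-most cluster was high-CpG, with a ratio of 0.91 and 57.3% G and C, and 0.722% of its words were repeated. The nearest peak lay 4621 bp upstream at chr11:98550652-98551004 with a signal of 3.21, at the start of Zpbp2. It came within 4626 bp in replicate 1 and 4619 bp in replicate 2.

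Ikzf4 likewise had no TSS peak. It spans chr10:128630843-128645991 on the minus strand, and its 2 start clusters had CpG ratios of 0.44 and 0.27. At the 5′-most cluster 22.7% of the words were repeated, and whether this bears on the missing peak was not tested. A single replicated peak lay inside Ikzf4, in an intron at chr10:128637344-128637892, with a signal of 6.78 in the replicated list, 6.98 in replicate 1 and 6.20 in replicate 2. Beyond the 3′ end of Ikzf4 the next domain lay at Rps26, a ribosomal protein gene.

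**Figure D4:**
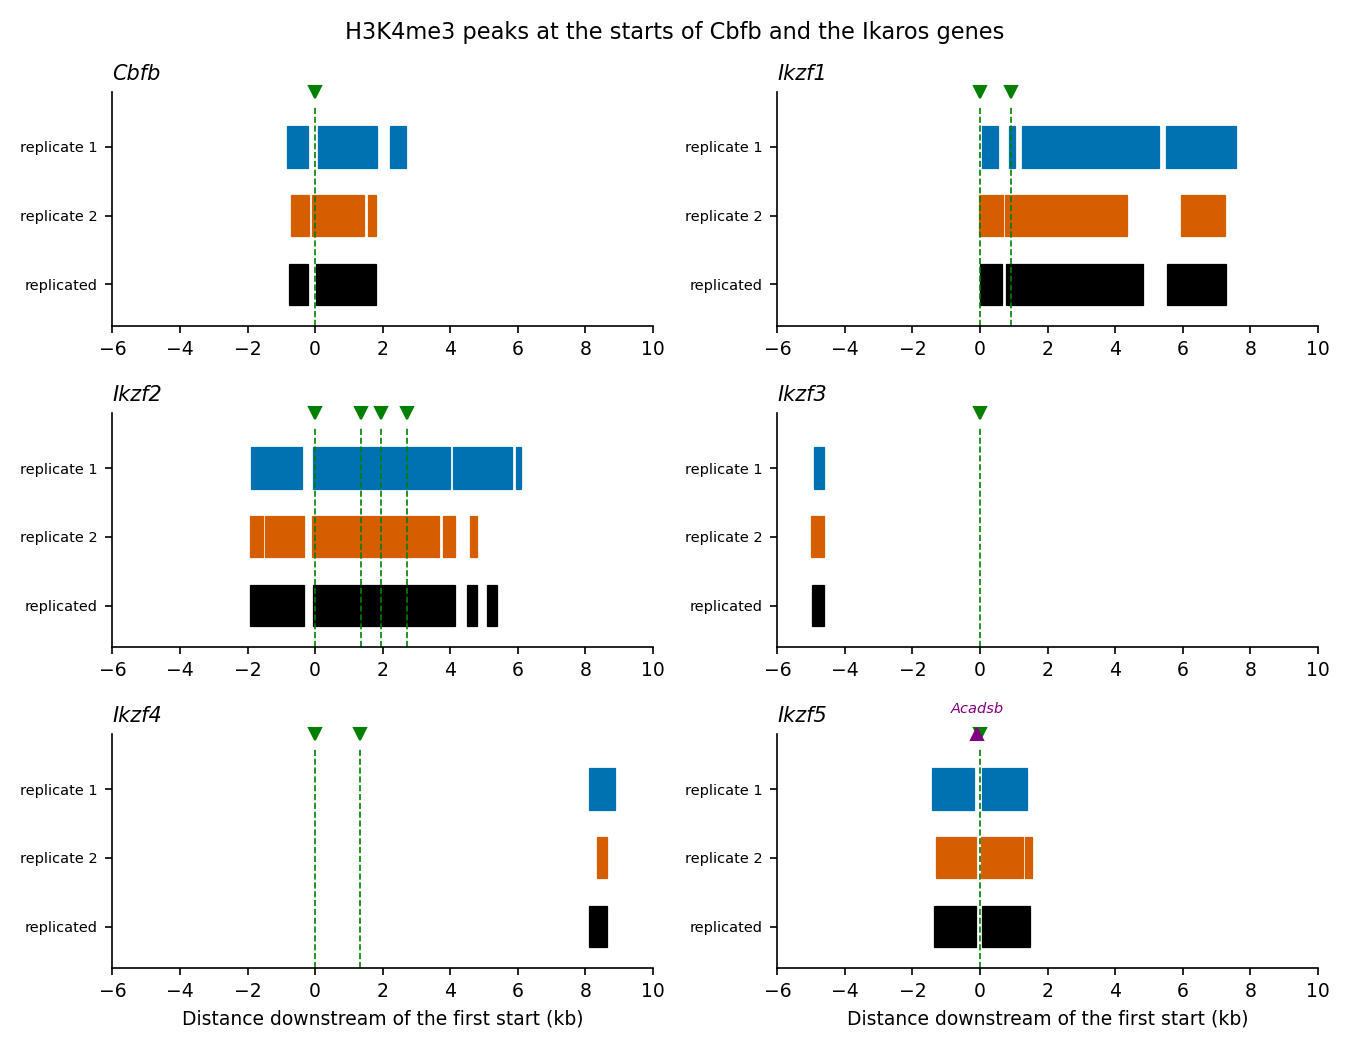
Peaks at the starts of Cbfb and the 5 Ikaros genes, in kb downstream of the 5′-most start, with a row for each list. Green triangles are start clusters, and the purple triangle is the start of Acadsb. In the replicated list blocks cover the starts of Ikzf1 and Ikzf2, flank the 5′-most starts of Cbfb and Ikzf5 and are absent from the starts of Ikzf3 and Ikzf4.

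The start regions of Ikzf2 and Ikzf3 are shown together, since both were high-CpG and only Ikzf2 was marked. The 250 bases before the 5′-most start lie at chr1:69687246-69687495, minus strand, and chr11:98546032-98546281, minus strand. Capitals mark the dinucleotide CG, which occurs 46 times at Ikzf2 and 15 times at Ikzf3.
Ikzf2: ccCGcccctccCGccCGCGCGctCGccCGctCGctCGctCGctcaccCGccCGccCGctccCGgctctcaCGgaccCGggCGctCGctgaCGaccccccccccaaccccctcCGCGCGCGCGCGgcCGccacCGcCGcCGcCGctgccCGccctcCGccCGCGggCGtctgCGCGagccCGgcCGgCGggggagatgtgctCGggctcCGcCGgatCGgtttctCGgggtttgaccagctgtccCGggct
Ikzf3: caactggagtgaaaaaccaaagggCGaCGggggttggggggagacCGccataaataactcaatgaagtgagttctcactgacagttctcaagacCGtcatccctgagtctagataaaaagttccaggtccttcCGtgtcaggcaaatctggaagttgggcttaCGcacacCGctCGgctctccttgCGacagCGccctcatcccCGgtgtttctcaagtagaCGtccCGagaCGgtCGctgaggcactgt

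Other letters searched on both strands were TGGGAA for Ikaros proteins, AGATAA for GATA factors and CCGGAA for ETS factors, found in 21.9%, 11.2% and 8.46% of the windows of all genes. The Ikzf3 window held AGATAA at -140 to -135, inside a stretch printed here in lower case, and the Ikzf2 window held none of the letters searched. The distal window of Runx3 held TGGGAA at -161 to -156, and the proximal window of Runx1 held CCGGAA at -107 to -102.

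**Figure D5:**
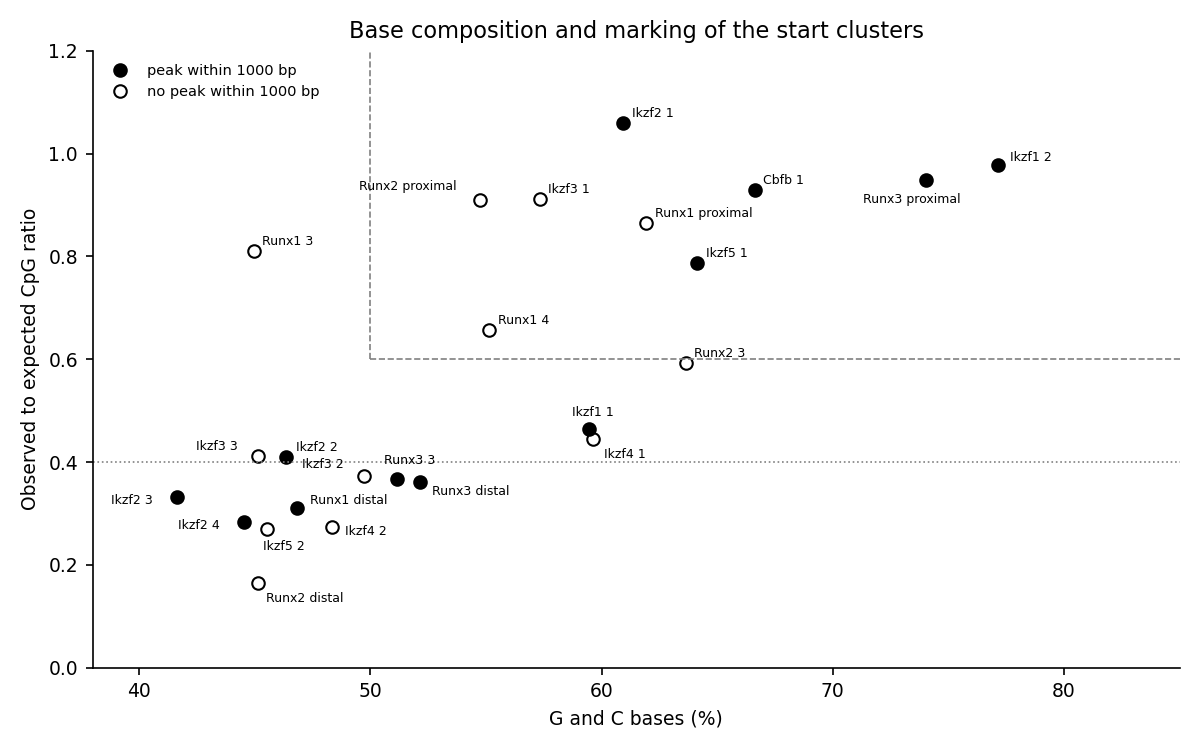
Observed to expected CpG ratio against percent G and C within 500 bases on either side of each of the 24 start clusters of the 9 genes. Filled circles had a peak within 1000 bp, open circles had none, and numbers after a name count clusters from the 5′ end. Dashed lines bound the high-CpG class and the dotted line the low-CpG class, and filled circles occur in both corners.

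Across the 24 clusters, as many low-CpG as high-CpG clusters were marked. Of the 9 high-CpG clusters 5 were marked, beside 76.4% of all high-CpG clusters. The unmarked 4 were the proximal promoters of Runx1 and Runx2, a Runx1 cluster next to the proximal one, and the 5′-most cluster of Ikzf3. Of the 9 low-CpG clusters 5 were marked, beside 9.06% of all low-CpG clusters. They were the distal promoters of Runx1 and Runx3, the last Runx3 cluster and 2 Ikzf2 clusters, and the last 3 lie under the same domain as a high-CpG start.

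Most genes for partner proteins of both families were marked. Of 20 genes for RUNX cofactors, 17 were marked in each of the 3 lists, with a median domain of 3177 bp beside 2258 bp for all marked genes. The unmarked ones were Runx1t1, the ETO corepressor, and the Hippo pathway coactivators Yap1 and Wwtr1. The widest domains were those of Sin3a (6597 bp), a corepressor scaffold, and Cbfa2t3 (6179 bp), an ETO relative that works in erythroid complexes. All 19 genes listed as Ikaros cofactors were marked, with a median of 3053 bp. The widest domains were at Cul4a (5204 bp), a ubiquitin ligase scaffold, and Chd3 (4853 bp), a remodelling ATPase. The 19 include Cul4a and other genes of its ubiquitin ligase, which are not cofactors in the strict sense. Most genes in both lists are known to act in nearly all cells, and whether this bears on their marks was not tested. Of all genes, 50.3% were marked.

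Known target genes were marked in part. Of 16 RUNX target genes of blood, 8 were marked in the replicated and replicate 2 lists and 7 in replicate 1, where Cebpa had no TSS peak, beside 50.3% of all genes. The median domain of the 8 was 3741 bp. The widest in the replicated list were Nfe2 (9648 bp), an erythroid and megakaryocyte factor, and Zbtb7b (6155 bp), a T helper cell factor. Nfe2 measured 9941 bp in replicate 1 and 5173 bp in replicate 2, where Zbtb7b (6206 bp), Spi1 (5813 bp) and Gfi1b (5383 bp) were wider. Among the unmarked were Cd4, Csf1r, Elane and Gfi1, genes of T cells, macrophages, granulocytes and progenitors. Of 12 Ikaros target genes, which are mostly lymphoid, 3 were marked, with a median of 2410 bp: Foxo1 (3385 bp), Hes1 (2410 bp) and Vpreb1 (1731 bp), whose mark lay at a transcript not annotated as coding. Blnk, Cd79b, Cd8a and Dntt were among the unmarked.

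The label of the line was set against marker genes of cell types. Of 11 erythroid markers 9 had a replicated TSS peak, and 10 had a TSS peak in replicate 1 and in replicate 2. In the replicated list the widest domains were at Gata1 (7953 bp) and Tal1 (4631 bp), and Epb42 and Slc4a1 were unmarked. Gata1 measured 8229 bp in replicate 1 and 5369 bp in replicate 2. In replicate 1 Tfrc (5494 bp) was wider than Tal1 (4689 bp). Epb42 had a weak TSS peak in each replicate list, with signals of 3.07 and 3.28. Of 10 megakaryocyte markers 5 were marked, near the 50.3% of all genes, the widest at Gp5 and Pf4. Of 10 T cell markers 3 were marked (Cd3d, Lck and Tcf7), of 10 B cell markers 1 (Vpreb1), of 10 myeloid markers 3 (Prtn3, Cebpa and Csf3r) and of 8 bone and cartilage markers 2 (Col1a1 and Alpl). The domains of Tcf7 and Csf3r were narrow, at 207 and 169 bp, with signals of 4.50 and 4.58 in the replicated list. The same held for the erythroid marker Hba-a1 (254 bp, signal 3.66) and the bone marker Alpl (386 bp, signal 4.75). The megakaryocyte marker Gp1ba had a signal of 2.78 in the replicated list, and its domain was 1254 bp there and 304 bp in replicate 2. With −log10 q of at least 5, 8 erythroid, 4 megakaryocyte and 2 T cell markers were marked. The counts were then 1 for B cell, 2 for myeloid and 2 for bone and cartilage markers. Bone regulators that work with Runx2, Sp7 and Dlx5, were unmarked.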

How the data were processed

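H3K4me3 ChIP-seq was analysed from peak lists on mm10: 1 for each of 2 replicate libraries, 1 of both pooled and 1 of replicated peaks. Notes deposited with the samples name alignments and a control as the source of the replicate and pooled lists, from which the replicated peaks were then drawn. Not given in the sources used here: aligner, peak caller and the rule for replicated peaks. For each peak the authors give a signal value, a score whose definition is not given here, a −log10 q and a summit position in bp. Signal values only describe or rank peaks within a list.

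Kept were peaks of chromosomes 1 to 19, X and Y: 37379 replicated, 41067 pooled, 51781 and 41501 in replicates 1 and 2. Depth is unknown, and no test was made, since the design has 1 group. Starts are those of all GENCODE M21 transcripts of protein-coding genes. Distal promoters are the 5′-most start clusters with a complete coding transcript, and proximal ones the next at least 5000 bp downstream. The marking step was tested on simulated peaks. The 9 genes and the gene lists were chosen with earlier results of these data known. Named were all 9 genes, in each other list all unmarked genes (the 4 first by alphabet where over 6) and the 2 widest, plus the 3 closest in width. Vpreb1, Cd3d, Lck, Tcf7, Cebpa, Prtn3, Csf3r, Hba-a1, Gp1ba, Sp7, Dlx5, Spi1, Gfi1b and Tfrc, where outside that rule, were named after their values were seen. Alternatives were windows of 500 and 2500 bp, −log10 q of at least 5, other lists, gaps and start definitions. The mm9 list was not used here. Python 3.11.15, numpy 2.4.6, pandas 2.3.3, pysam 0.24.0 and matplotlib 3.10.9 were used.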

Additional observations from a re-analysis of the deposited data

How the results depend on the processing

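Runx1, Runx3, Cbfb, Ikzf1, Ikzf2 and Ikzf5 stayed marked, and Runx2, Ikzf3 and Ikzf4 unmarked, under all 9 alternatives run. The distal mark of Runx1 and Runx3 and the proximal mark of Runx3 stayed under all 5 run for them. Marked start clusters numbered 8 to 12, fewest where starts within 1000 bp were joined. Over 12 gene lists, 81 of 84 counts kept within 1.5 times the count reported. The other 3 were 0 B cell markers with protein-coding transcripts only, 5 myeloid markers with a window of 2500 bp and 1 bone and cartilage marker with a window of 500 bp. With −log10 q of at least 5, the marked RUNX target genes fell from 8 to 6. Leaving out a replicate gave 36 to 48 peaks in the bodies of the 9 genes, beside 27 in the replicated list.

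All widths but that of Runx1 moved with the gap that was joined. With no gap Ikzf1 fell to 4066 bp, Ikzf2 to 4226 bp, Ikzf5 to 1431 bp, Cbfb to 1786 bp and Runx3 to 1921 bp. With gaps up to 2000 bp Runx3 rose to 4399 bp. The width of Runx1 did not move with the gap and was 5125 bp in the replicate 1 list, and Ikzf1 measured 4391 bp in the replicate 2 list. With −log10 q of at least 5 Ikzf2 measured 6081 bp, and Runx1 kept 1 body peak. No paired analysis was possible because there is 1 group. A peak list without read counts cannot show how low a signal would have been missed at Runx2, Ikzf3 or Ikzf4.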

Other observations

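The RUNX genes sit beside members of the Clic and Rcan families, a duplicated neighbourhood, and the neighbours did not all share the state of the RUNX gene. Beside Runx2, which was unmarked, Clic5 (chloride intracellular channel, 216 kb away) and Rcan2 (a calcineurin regulator, 456 kb away) each had a TSS peak, in narrow domains of 655 and 659 bp. Beside Runx1, Rcan1 was marked with 2217 bp at 131 kb, and Clic6 was unmarked at 60.2 kb. Beside Runx3, both Clic4 (3316 bp, 36.0 kb away) and Rcan3 (1606 bp, 234 kb away) were marked. In total 5 of these 6 genes were marked, beside 50.3% of all genes.

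Genes of the ERBB receptor family lie on the chromosomes of 4 Ikaros genes, at distances from 27.2 to 4979 kb. Erbb3, 41.2 kb from the unmarked Ikzf4, was marked in a domain of 1769 bp with a signal of 19.8 in the replicated list. Erbb2, 27.2 kb from the unmarked Ikzf3, was unmarked. Erbb4, 423 kb from Ikzf2, and Egfr, 4979 kb from Ikzf1, were unmarked, while Ikzf2 and Ikzf1 were marked.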
